A study of Mus musculus with 8 samples.

Results

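Csf2, Il3 and Csf1 are the 3 genes described here, out of 33524 genes given values. They were taken by name as the colony-stimulating cytokines of this series, and none was chosen by its level. Earlier results of these data were known when these genes and the gene lists below were chosen. Csf2 encodes GM-CSF, Il3 encodes interleukin 3 and Csf1 encodes M-CSF. RNA was sequenced from mouse Th1 cells, the CD4 T helper cells that make interferon gamma. They came from C57BL/6 CD4 T cells that were activated by antibodies to CD3 and CD28 and cultured in IL-12 (2 ng/ml) while IL-4 was blocked by antibody (5 units of weight per ml, with the prefix of the unit unreadable in the labels). The 8 libraries form 4 groups of 2. Cells transduced with a short hairpin RNA against Pcbp1 were set against cells transduced with a scrambled hairpin, in total RNA depleted of ribosomal RNA. Cells treated with the iron chelator CPX (ciclopirox olamine) were set against cells treated with DMSO, in polyA RNA. Every group carried the same activation and IL-12 culture. No source used here gives the number of hairpins, the CPX dose or the hours of culture, transduction and treatment.

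Colony-stimulating factors are secreted proteins named for the blood cell colonies they support. GM-CSF and interleukin 3 act on myeloid cells through receptors that pair a private alpha chain (Csf2ra, Il3ra) with a shared beta chain (Csf2rb) and signal through JAK2 and STAT5. M-CSF acts on macrophages through its own receptor tyrosine kinase, Csf1r. Activated helper T cells switch on Csf2 and Il3 together through NFAT, AP-1, NF-kB and RUNX factors, and both genes lie side by side in the type 2 cytokine cluster of mouse chromosome 11. Csf2 mRNA is a textbook case of control by AU-rich elements, repeats of ATTTA in the 3′ untranslated region (UTR) that are bound by proteins such as tristetraprolin (Zfp36), which shortens mRNA life, and HuR (Elavl1), which lengthens it. PCBP1 binds C-rich RNA and also carries iron to ferritin and to iron-dependent enzymes.

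The AU-rich stretches are shown because ATTTA repeats are a known control element of Csf2 mRNA and the 3 UTR models searched hold unlike numbers of them. Each line gives 30 bases of the 3′ UTR of the GENCODE M21 transcript with the longest 3′ UTR, 5′ to 3′, with ATTTA in capitals.
Csf2: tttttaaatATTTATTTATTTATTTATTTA
Il3: ctttatgccatcaaatgtcttatcaATTTA
Csf1: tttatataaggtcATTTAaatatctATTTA
The Csf2 window (bases 230 to 259 of a UTR of 317) held 5 overlapping copies, and the whole Csf2 UTR held 9. Of 16326 genes with a UTR at least as long, Csf2 included, 3 (0.0184%) had at least as many in their last 317 bases. Csf2 also held 4 copies of the nonamer TTATTTATT, and 0.0429% of those genes, Csf2 included, had at least as many in that stretch. Il3 held 1 ATTTA in a UTR of 101 bases. Of genes with a UTR of that length or more, 22.4% held at least 1 in their last 101 bases. The RefSeq model of Il3 runs 218 bases further 3′ than this GENCODE model, and that stretch was not searched. Csf1 held 4 copies in a UTR of 2111 bases. Of genes with a UTR of that length or more, 51.9% held at least as many in their last 2111 bases. A run of 4 C was absent from the Csf2 and Il3 UTRs and was found 18 times, overlaps counted, in that of Csf1. That number was reached in the last 2111 bases of 9.03% of the same genes. These counts describe letters and say nothing of binding.

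Gene counts summed to 14174293 to 15518303 per library in the hairpin experiment. With CPX and DMSO the totals were 19193784 to 19662145 units of a rescaled count, each worth about 1.97 reads. Levels below are in RPM, a gene's value over its library's total times 1e+06, and were compared only within an experiment. Pcbp1 itself was at 15.1 and 16.1 RPM with the Pcbp1 hairpin, against 44.0 and 51.7 RPM with the scrambled hairpin (log2 fold change -1.73, edgeR's quasi-likelihood test, adjusted p = 3.18e-05). With CPX it was at 238 and 199 RPM, against 506 and 538 RPM with DMSO (-1.26, limma, adjusted p = 0.00613). The replicates are numbered in the labels, with nothing on whether each was its own culture or animal, so p-values measure only the spread between these libraries, which may be technical. An exact permutation test of 2 libraries against 2 cannot give a p under 0.333.

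Per length of exon, Il3 was far above the other members in hairpin-bearing cells. In RPM per kilobase of the merged GENCODE exons, Il3 stood at 6031 and 8143 with the Pcbp1 hairpin and at 12280 and 17561 with the scrambled hairpin. Csf2 stood at 136 and 158 with the Pcbp1 hairpin, against 574 and 668 with the scrambled hairpin. Csf1 stood at 28.4 and 35.8 with the Pcbp1 hairpin, against 16.5 and 24.7 with the scrambled hairpin. The order of levels, Il3, then Csf2, then Csf1, held in each of these 4 libraries with no overlap between neighbours. With CPX, Il3 was at 435 and 56.2, Csf2 at 48.1 and 11.7 and Csf1 at 20.5 and 12.5, so the spans of Csf2 and Csf1 overlapped and Csf2 was below Csf1 in CPX replicate 2. With DMSO the order was Il3, Csf2, Csf1 in both libraries, but the span of Il3 (9432 and 886) overlapped that of Csf2 (1483 and 130.3), while Csf1 (15.8 and 7.82) lay below both.

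With the Pcbp1 hairpin, Csf2 and Il3 were lower and Csf1 was slightly higher. Csf2 was at 109 and 127 RPM with the Pcbp1 hairpin, against 459 and 534 RPM with the scrambled hairpin. The groups were far apart, and the nearest 2 libraries differed 3.63-fold. The log2 fold change was -2.19 (SE 0.11, adjusted p = 1.27e-05 by edgeR's quasi-likelihood test), a 4.55-fold fall, and 3 of the 11575 genes tested had a lower value. In bulk RNA, fewer cells making a cytokine and less RNA in each cannot be told apart.

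Il3 was at 3794 and 5122 RPM with the Pcbp1 hairpin, against 7724 and 11046 RPM with the scrambled hairpin. All of these levels were high and the groups did not overlap. The log2 fold change was -1.18 (SE 0.21, adjusted p = 0.00203 by edgeR's quasi-likelihood test), a 2.27-fold fall, and 242 genes had a lower value. With limma after quantile normalization, which reshapes the top of the distribution, it was -0.56 (adjusted p = 0.0161).

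Csf1 was at 150.1 and 189 RPM with the Pcbp1 hairpin, against 86.9 and 130.3 RPM with the scrambled hairpin. The groups did not overlap, but the nearest libraries were only 1.15-fold apart. The log2 fold change was 0.54 (SE 0.19, adjusted p = 0.0421 by edgeR's quasi-likelihood test), a 1.45-fold rise, and 44.0% of genes changed by more in size. That call was lost with DESeq2 (adjusted p = 0.184) and with a filter of 5 RPM (0.0549). It was also lost when scrambled hairpin replicate 1 was left out (0.26, adjusted p = 0.130) or Pcbp1 hairpin replicate 2 was (0.33, adjusted p = 0.139). Without scrambled hairpin replicate 2 the value was 0.86.

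These 3 calls stand against a background in which edgeR called 56.0% of all genes tested, 29.3% that rose and 26.7% that fell, and in which the groups did not overlap for 78.5%. A call alone therefore sets none of them apart, whereas the size of the Csf2 fall was exceeded by 0.449% of genes in either direction. In the authors' deposited table, which calls 43.6% of its genes, Csf2 has a log2 fold change of -2.16 (adjusted p = 4.31e-86) and Il3 one of -1.05 (adjusted p = 0.00149). Csf1 is not called in that table (0.48, adjusted p = 0.185).

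**Figure D1:**
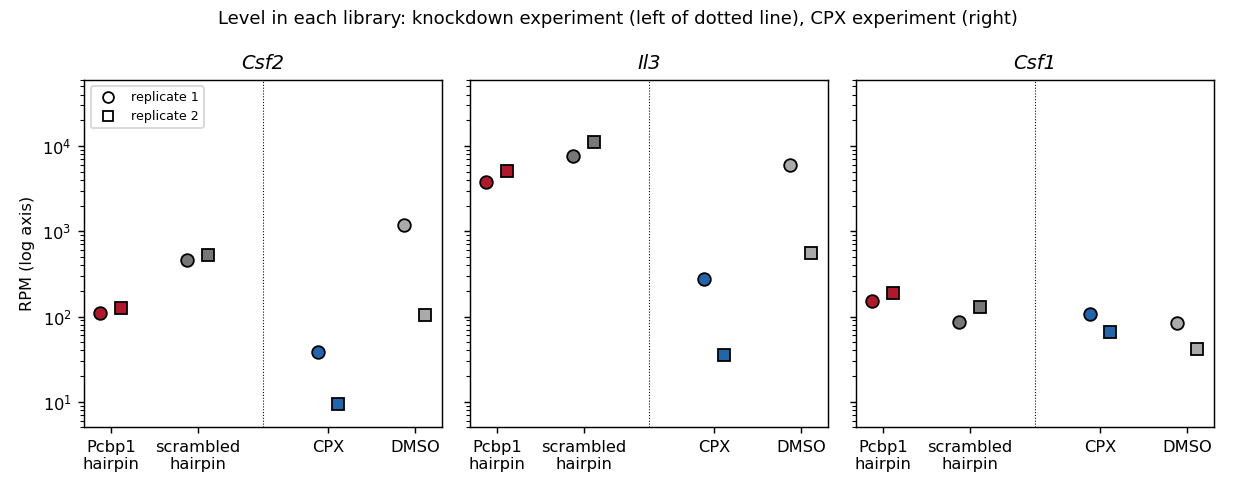
RPM of Csf2, Il3 and Csf1 in each of the 8 libraries on a log axis, with replicate 1 as circles and replicate 2 as squares; the dotted line parts the 2 experiments. With CPX and DMSO the replicates of 1 group lie far apart for Csf2 and Il3, as in DMSO at 1186 and 104 RPM for Csf2, while the hairpin replicates lie close.

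With CPX, Csf2 was lower and Il3 was lower by a like amount, but only Csf2 passed the test, and the replicates were uneven. Csf2 was at 38.5 and 9.36 RPM with CPX, against 1186 and 104 RPM with DMSO. Both CPX libraries lay under both DMSO libraries, the nearest 2 by 2.71-fold. The log2 fold change was -4.17 (SE 1.22, 95% interval -7.21 to -1.13, limma, adjusted p = 0.0387), and 29 of 11466 genes had a lower value.

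Il3 was at 274 and 35.3 RPM with CPX, against 5932 and 557 RPM with DMSO. Again the groups did not overlap, with the nearest 2 libraries 2.04-fold apart. Its log2 fold change of -4.20 (SE 1.36, 95% interval -7.57 to -0.82) did not pass the test (limma, adjusted p = 0.0514), although 26 genes had a lower value. With equal replicate numbers taken as pairs, which no label states, Il3 passed (limma, adjusted p = 3.21e-06). Csf1 was at 108 and 66.2 RPM with CPX, against 83.3 and 41.3 RPM with DMSO. Its groups overlapped, and its log2 fold change of 0.53 (95% interval -0.53 to 1.58) did not pass (limma, adjusted p = 0.348).

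In this comparison limma called 44.7% of genes (19.9% rose and 24.8% fell), and the groups did not overlap for 76.3%. The authors' deposited table calls 41.3% of its genes, among them Csf2 (log2 fold change -3.43, adjusted p = 0.00732) and Il3 (-3.01, adjusted p = 0.0261), and does not call Csf1 (0.48, adjusted p = 0.424). Single libraries decided the call and the size. Without DMSO replicate 1, the higher one, the log2 fold change was -2.42 for Csf2 (limma, adjusted p = 0.0305) and -2.49 for Il3 (adjusted p = 0.0479). Without DMSO replicate 2 both were larger, at -5.92 for Csf2 (limma, adjusted p = 0.000346) and -5.90 for Il3 (adjusted p = 0.000858). Without CPX replicate 1 Csf2 missed the threshold (-5.16, limma, adjusted p = 0.0598) and Il3 passed it (-5.67, adjusted p = 0.0453). Without CPX replicate 2 both missed it, Csf2 at -3.18 (limma, adjusted p = 0.162) and Il3 at -2.73 (adjusted p = 0.204). The Csf2 call was also lost with quantile normalization (adjusted p = 0.0560) and with no filter on low values (0.136). The direction was down for Csf2 and Il3 in each of these fits.

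The spread between the 2 DMSO libraries was itself among the widest in the data for Csf2 and Il3. Csf2 was 11.4-fold higher in DMSO replicate 1 than in replicate 2, a gap that 8 of 11466 genes exceeded. For Il3 the gap was 10.6-fold and 11 genes exceeded it, whereas Csf1 differed 2.02-fold and 520 genes exceeded that. Between the CPX libraries Il3 differed 7.75-fold (14 genes exceeded it), Csf2 4.12-fold (158 genes) and Csf1 1.64-fold (3354 genes). In all of these, replicate 1 was the higher library. In the hairpin groups the widest gap was that of Csf1, at 86.9 and 130.3 RPM with the scrambled hairpin.

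Other cytokines were uneven as well, though not all the same way. Of 30 cytokine genes tested with CPX, the members included, 14 were higher in replicate 1 of both groups and 9 were higher in replicate 2 of both. Il4, at 15.0 and 5.46 RPM with CPX and 89.4 and 19.5 RPM with DMSO, leaned the way of Csf2 and Il3. Il10, at 8.34 and 95.8 RPM with CPX and 176 and 1010.0 RPM with DMSO, leaned the opposite way, as did Il21 and Ifng. Both Il4 and Il10 are named here for this lean after their values were seen. What set the replicates apart was not tested.

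**Figure D2:**
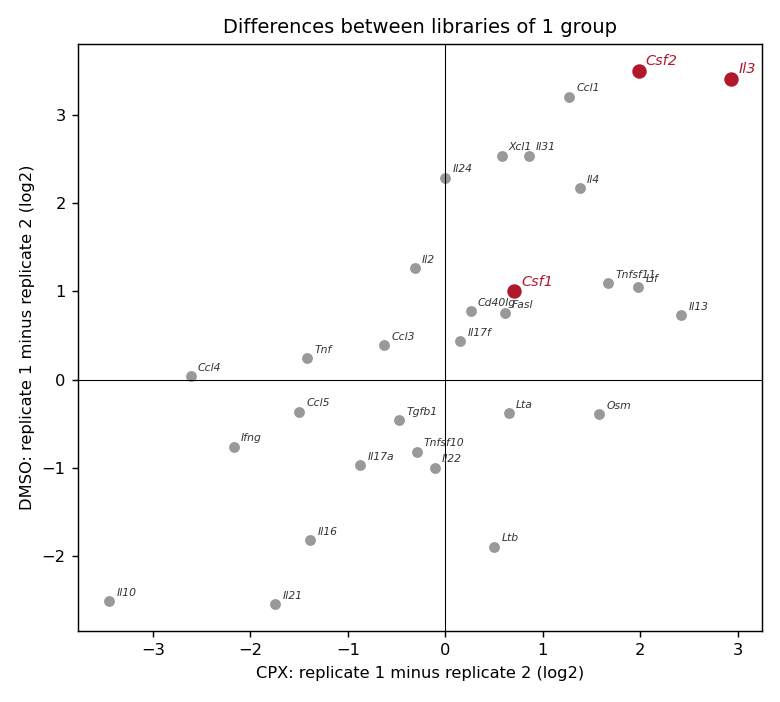
Log2 difference between replicate 1 and replicate 2 in CPX (horizontal) and in DMSO (vertical) for the 30 cytokine genes tested there, with the 3 members in red. Csf2 and Il3 sit at the far upper right, higher in replicate 1 of both groups, and Il10 and Il21 at the lower left.

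The effects of the hairpin and of CPX were also set against each other in 1 limma fit of all 8 libraries, in which a positive value means a higher (less negative) effect of the hairpin than of CPX. The difference was 2.09 for Csf2 (SE 1.51, 95% interval -1.45 to 5.64, limma, adjusted p = 0.280). It was 3.13 for Il3 (SE 1.70, 95% interval -0.86 to 7.12, limma, adjusted p = 0.162). For Csf1 it was 0.13 (SE 0.54, 95% interval -1.14 to 1.41, limma, adjusted p = 0.853). None of the 3 was called, against 51.3% of 10430 genes called (35.2% above 0 and 16.1% below), and the intervals leave room for both no difference and a difference of many fold. With equal replicate numbers taken as pairs, which no label states, the differences of Csf2 (limma, adjusted p = 0.0192) and Il3 (0.000997) passed. The median over all genes was 0.40, so Csf1 lay under it. Without DMSO replicate 2 the difference passed for Csf2 (3.84, limma, adjusted p = 0.0196) and for Il3 (4.84, adjusted p = 0.0334), and without CPX replicate 1 it passed for Il3 (4.60, adjusted p = 0.0412). The sign of the Csf1 difference turned to -0.24 with TMM scaling, to -0.16 without scrambled hairpin replicate 1, to -0.03 without Pcbp1 hairpin replicate 2, to -0.37 without DMSO replicate 1 and to -0.22 without CPX replicate 2.

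**Figure D3:**
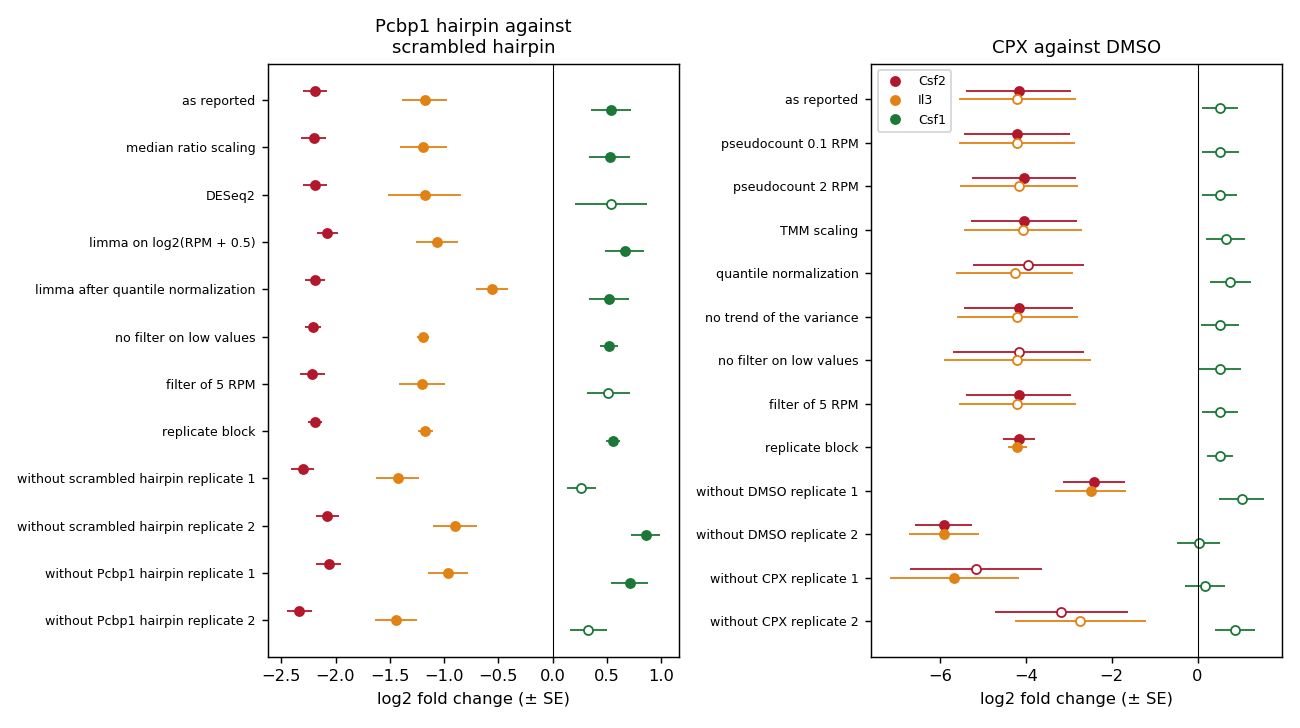
Log2 fold change with its SE for each member under each processing setting, with the Pcbp1 hairpin against the scrambled hairpin on the left and CPX against DMSO on the right; filled points passed at an adjusted p under 0.05 and open points did not. The knockdown values of Csf2 stay between -2.33 and -2.06, while its CPX values run between -5.92 and -2.42.

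The receptors for these cytokines were low or undetected, and the other ligands were scarce. Of the 10 other ligands and receptors of the family, 2 passed the filter of 1 RPM in 2 libraries in each experiment. Il5, the eosinophil growth factor that shares the beta chain, was at 3.03 and 1.40 RPM with the Pcbp1 hairpin, against 5.86 and 4.89 RPM with the scrambled hairpin. It fell (-1.37, edgeR's quasi-likelihood test, adjusted p = 0.00909). With CPX it was listed at 0 in both libraries, against 0.305 and 0.716 RPM with DMSO, too low to test.

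Il3ra, the alpha chain for interleukin 3, was at 24.0 and 23.2 RPM with CPX, against 7.98 and 9.52 RPM with DMSO. It rose (1.39, SE 0.29, limma, adjusted p = 0.0142), and the call was lost without DMSO replicate 1 (adjusted p = 0.139) and without DMSO replicate 2 (0.0819). In the hairpin experiment it was under the filter, at 0.709 and 0.280 RPM with the Pcbp1 hairpin and 0.917 and 1.47 RPM with the scrambled hairpin. Csf2ra, the alpha chain for GM-CSF, was at 21.9 and 14.0 RPM with CPX, against 9.76 and 7.67 RPM with DMSO, with no overlap but without passing (0.98, limma, adjusted p = 0.0724). It passed without CPX replicate 2 (1.29, limma, adjusted p = 0.0252).

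With the Pcbp1 hairpin Csf2ra was at 2.71 and 2.73 RPM, against 3.10 and 4.47 RPM with the scrambled hairpin (-0.59, edgeR's quasi-likelihood test, adjusted p = 0.0864; -0.83 and 0.0367 without scrambled hairpin replicate 1). The difference between the hairpin and CPX effects passed for Csf2ra (-1.37, SE 0.41, limma, adjusted p = 0.0256). The shared beta chain Csf2rb and its mouse relative Csf2rb2 reached at most 0.572 RPM in any library. Values of Csf2rb could not be tied to it alone by the authors' means and are given as labelled. Csf1r, the M-CSF receptor, reached 0.420 RPM, and Csf3, Il34, Il5ra and Csf3r stayed at or under 0.322 RPM.

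Below the receptors, the signal runs through JAK2, STAT5 and adaptor proteins, which T cells also use for IL-2. Of 18 such genes, 10 rose and 4 fell with the Pcbp1 hairpin, with a median log2 fold change of 0.42 against 0.00 over all genes. Among all genes tested, 29.3% rose and 26.7% fell with the Pcbp1 hairpin, and 19.9% rose and 24.8% fell with CPX. Ptpn11, the phosphatase SHP2, rose by 1.22 (edgeR's quasi-likelihood test, adjusted p = 1.66e-05) and Stat3 by 1.30 (adjusted p = 9.67e-05). Stat5b rose by 0.67 and the kinase gene Pim1 by 0.68. With CPX 3 rose and 6 fell, with a median of -0.43 against -0.12 over all genes, and the number that rose was 0 without DMSO replicate 1 and 1 without DMSO replicate 2.

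Both STAT5 genes were much lower with CPX. Stat5a was at 36.5 and 148 RPM with CPX, against 1062 and 980.1 RPM with DMSO (-3.78, limma, adjusted p = 0.00725, and 0.0501 with no filter). Stat5b was at 22.9 and 42.2 RPM with CPX, against 311 and 368 RPM with DMSO (-3.42, limma, adjusted p = 0.00258). Their groups were far from overlapping. Cish, a feedback inhibitor induced by STAT5, fell by 2.16 on the log2 scale and Jak2 by 1.32 (limma, adjusted p = 0.00768 and 0.00574). The difference between the 2 effects passed for Stat5b (4.20, limma, adjusted p = 0.000198) and for Cbl, a ubiquitin ligase (2.23, adjusted p = 0.000267).

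Transcription factors known to act at the Csf2 and Il3 promoters and enhancers were mostly higher with the Pcbp1 hairpin, in the same libraries in which both cytokine genes were lower. Of 31 such genes, 18 rose and 4 fell, where 29.3% of all genes tested rose and 26.7% fell, and the median log2 fold change was 0.46 against 0.00 over all genes. Bhlhe40, which in mouse T cells is needed for GM-CSF production, was at 175 and 166 RPM with the Pcbp1 hairpin, against 43.5 and 37.5 RPM with the scrambled hairpin. It rose (1.97, edgeR's quasi-likelihood test, adjusted p = 8.7e-06) with no overlap. Rela, an NF-kB subunit, rose by 1.12, Nfatc3 by 1.18 and Runx2 by 1.12.

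With CPX 7 of the 31 rose and 6 fell, with a median of 0.03, and the number that fell was 2 without DMSO replicate 2. The shares over all genes were 19.9% that rose and 24.8% that fell with CPX. The AP-1 genes moved apart. Fosb was at 448 and 470 RPM with CPX, against 7.43 and 7.62 RPM with DMSO (5.84, limma, adjusted p = 0.00241). Fosl2 rose by 2.73 and Jun by 2.45. Batf, an AP-1 partner in T cells, was at 13.9 and 18.7 RPM with CPX, against 139 and 142 RPM with DMSO, and fell (-3.08, limma, adjusted p = 0.00241). The difference between the effects passed for Fosb (-5.10) and Rora (-2.86, limma, adjusted p = 0.000254).

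Cytokine receptors whose signals raise Csf2 in helper T cells were called in about the share seen over all genes. Of 13, 5 rose and 3 fell with the Pcbp1 hairpin (median 0.15), where 29.3% of all genes rose and 26.7% fell, and the number that rose was 3 without scrambled hairpin replicate 1 or without Pcbp1 hairpin replicate 1. Il18rap, part of the IL-18 receptor, fell by 1.62 on the log2 scale (edgeR's quasi-likelihood test, adjusted p = 5.31e-05) and Il7r, the IL-7 receptor, fell by 0.71. The IL-2 receptor chains Il2rb (0.79) and Il2rg (0.73) rose. With CPX 4 of 12 tested rose and 2 fell (median -0.14), where 19.9% of all genes rose and 24.8% fell. Without DMSO replicate 2 the numbers were 2 and 1, and without CPX replicate 1 the number that fell was 1. Il6st, the shared chain of the IL-6 receptor, rose by 2.38 and Il2rb by 1.90 (limma, adjusted p = 0.00381 and 0.00297). Il6ra rose by 1.68, and Il12rb2, a chain of the IL-12 receptor, fell by 1.98 (limma, adjusted p = 0.0162 and 0.0192). Both calls were lost without DMSO replicate 2 (Il6ra 1.52 and 0.0636, Il12rb2 -1.33 and 0.0880) and with no filter (0.0611 and 0.0809), and that of Il12rb2 without CPX replicate 1 as well (-1.79, adjusted p = 0.0733). The difference passed for Il2rb and for Il6st (-2.07, limma, adjusted p = 0.00224).

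Proteins that bind or cut cytokine mRNA were also mostly higher with the Pcbp1 hairpin. The list holds binders of AU-rich sequence and others, such as the C-rich binders Pcbp1 and Pcbp2 and the stem-loop factors Zc3h12a, Rc3h1 and Rc3h2. Of its 20 genes, 13 rose and 4 fell, where 29.3% of all genes tested rose and 26.7% fell, and the median log2 fold change was 0.54 against 0.00 over all genes. Pcbp1, the target of the hairpin, is 1 of the 4. Zfp36l2, of the tristetraprolin family, was at 37.2 and 42.0 RPM with the Pcbp1 hairpin, against 12.1 and 11.9 RPM with the scrambled hairpin, and rose (1.62, edgeR's quasi-likelihood test, adjusted p = 3.39e-05). Hnrnpd, which encodes AUF1, rose by 1.45, and Khsrp, which encodes the decay factor KSRP, by 1.11. Elavl1 and Zfp36, named here because they were introduced above, rose as well. Elavl1, which encodes HuR, was at 145 and 168 RPM with the Pcbp1 hairpin, against 70.6 and 70.7 RPM with the scrambled hairpin. It rose by 1.04 (edgeR's quasi-likelihood test, adjusted p = 6.2e-05) and Zfp36 by 1.24 (adjusted p = 0.000395).

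With CPX 4 of these 20 rose and 7 fell, with a median of -0.68, where 19.9% of all genes rose and 24.8% fell. Without DMSO replicate 1 the numbers were 2 and 4. Zfp36 itself was at 421 and 713 RPM with CPX, against 37.3 and 45.0 RPM with DMSO, and rose (3.73, limma, adjusted p = 0.00241). Arid5a, which protects some cytokine mRNAs, rose by 2.33 (adjusted p = 0.00289). Zc3h12a, the RNase Regnase-1, was at 28.4 and 22.7 RPM with CPX, against 77.5 and 86.0 RPM with DMSO, and fell (-1.67, limma, adjusted p = 0.00554). The difference between the effects passed for Zc3h12a (2.45) and Ncl, which encodes nucleolin (2.35, limma, adjusted p = 0.000314). None of these values shows what acts on Csf2, and no mRNA half-life was measured.

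Csf2 and Il3 lie on mouse chromosome 11 with 15635 bases between them (GENCODE M21, GRCm38), both on the minus strand, whereas Csf1 lies on chromosome 3. The genes beside them did not follow them as a block. P4ha2, on the far side of Csf2, encodes a collagen prolyl hydroxylase. It was at 35.2 and 43.2 RPM with CPX, against 5.80 and 4.45 RPM with DMSO, and rose (2.82, limma, adjusted p = 0.00306), while with the Pcbp1 hairpin it did not pass (0.17, edgeR's quasi-likelihood test, adjusted p = 0.606). Acsl6, an acyl-CoA synthetase gene on the far side of Il3, rose with the Pcbp1 hairpin (0.57, edgeR's quasi-likelihood test, adjusted p = 0.0349).

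Acsl6 was at 6.98 and 0.936 RPM with CPX, against 34.6 and 5.88 RPM with DMSO. Its libraries were uneven as for Csf2 and Il3, its groups overlapped, and it did not pass (-2.19, limma, adjusted p = 0.145). Fnip1, further along, fell with the Pcbp1 hairpin (-0.54, edgeR's quasi-likelihood test, adjusted p = 0.000651) and rose with CPX (2.63, limma, adjusted p = 0.00256), and the difference between those effects passed (-3.06, limma, adjusted p = 0.000156). Slc22a4 and Pdlim4, on the P4ha2 side, did not pass the filter, and Meikin was not found by name in the files.

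Across 16 listed genes of the cluster other than the 2 members, 12 were tested in each experiment. With the Pcbp1 hairpin 3 rose and 5 fell (median -0.17, 1 rise without scrambled hairpin replicate 1), and with CPX 4 rose and 3 fell (median -0.60 against -0.12 over all genes, 2 and 1 without DMSO replicate 1). Over all genes tested, 29.3% rose and 26.7% fell with the Pcbp1 hairpin, and 19.9% rose and 24.8% fell with CPX. Il4, a Th2 cytokine, fell by 2.73 on the log2 scale and Il13 by 1.16 with the Pcbp1 hairpin (edgeR's quasi-likelihood test, adjusted p = 1.54e-05 and 4.76e-05). Rad50, a DNA repair gene that holds the Th2 locus control region, rose by 0.95 with the Pcbp1 hairpin, and the difference between its effects passed (2.12). With CPX Il13 fell by 4.65 and Irf1, an interferon-induced factor, rose by 1.85 (limma, adjusted p = 0.00793 and 0.00848). The Irf1 call was lost without DMSO replicate 1 (limma, adjusted p = 0.0578) and the Il13 call with no filter (0.0520).

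**Figure D4:**
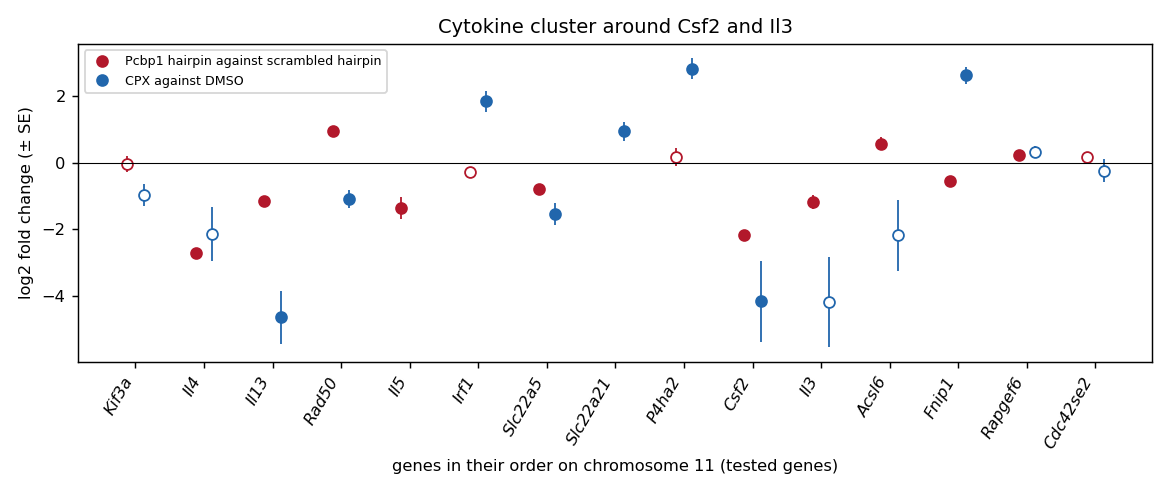
Log2 fold change with its SE for the tested genes of the chromosome 11 cytokine cluster in their order on the chromosome, with the Pcbp1 hairpin against the scrambled hairpin in red and CPX against DMSO in blue; filled points passed at an adjusted p under 0.05. Csf2 and Il3 lie low in both comparisons, between P4ha2 at 0.17 and 2.82 and Acsl6 at 0.57 and -2.19.

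The start regions of the 2 genes that moved together are given from RefSeq (GRCm38.p6, minus strand, 250 bases before the start and 50 after it, 5′ to 3′). Capitals mark GGAAA, the core of NFAT sites, read as TTTCC on the other strand, and TGTGGT, a RUNX core.
Csf2, chr11:54249850-54250149: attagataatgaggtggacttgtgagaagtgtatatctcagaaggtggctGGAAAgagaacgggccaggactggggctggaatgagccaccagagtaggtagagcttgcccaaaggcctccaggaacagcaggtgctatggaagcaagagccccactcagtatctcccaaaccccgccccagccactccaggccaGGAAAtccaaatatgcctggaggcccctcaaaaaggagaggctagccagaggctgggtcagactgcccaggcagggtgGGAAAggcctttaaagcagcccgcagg
Il3, chr11:54267230-54267529: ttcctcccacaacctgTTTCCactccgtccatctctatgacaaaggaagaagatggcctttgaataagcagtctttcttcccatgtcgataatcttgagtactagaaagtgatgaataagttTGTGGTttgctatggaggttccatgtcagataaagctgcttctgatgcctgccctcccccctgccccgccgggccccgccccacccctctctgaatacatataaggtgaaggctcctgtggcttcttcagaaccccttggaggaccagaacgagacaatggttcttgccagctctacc
The Csf2 window held 3 GGAAA matches and the Il3 window 1, on either strand and with no overlaps, and 61.3% of 27025 promoters of this length hold at least 1. TGTGGT was found once in the Il3 window and in 16.9% of promoters. TGANTCA, for AP-1, was found in neither and in 7.93% of promoters. RefSeq's start of Csf2 lies 232 bases upstream of GENCODE's, and the window ends before the GENCODE start, so the bases just upstream of that start are not shown. A match is a description of letters, and the absence of one says only that the letters are not there.

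Among T cell cytokines as a class, Csf2 and Il3 were in the majority direction and Csf1 was not. Of 28 other cytokine genes tested with the Pcbp1 hairpin, 2 rose and 18 fell, where 29.3% of all genes tested rose and 26.7% fell. Their median log2 fold change was -0.79 against 0.00 over all genes. Il21, a cytokine of follicular helper cells, fell by 1.81 (edgeR's quasi-likelihood test, adjusted p = 1.04e-05), Il2, the T cell growth factor, by 1.40 (adjusted p = 3.18e-05) and Tnfsf11, which encodes RANKL, by 1.14 (adjusted p = 2.53e-05). Il4 was the 1 cytokine of the list with a lower value than Csf2. The 2 that rose, named here for their number, were Tgfb1 (1.25) and the chemokine gene Ccl5 (1.59).

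With CPX 0 of 27 other cytokine genes rose and 18 fell, where 19.9% of all genes tested rose and 24.8% fell. Their median was -2.52 against -0.12 over all genes, and 8 fell with no filter on low values. Il2 was at 182 and 226 RPM with CPX, against 10023 and 4183 RPM with DMSO (-4.99, limma, adjusted p = 0.00241). Il17f fell by 4.75, the chemokine gene Ccl3 by 2.59 and Tnfsf10, which encodes TRAIL, by 2.97 (limma, adjusted p = 0.00241, 0.00296 and 0.00421). The difference between the effects was above 0 and called for 16 of 27, and below 0 and called for 0. Il17f was among the 16 (4.21, limma, adjusted p = 8.32e-05). Over all genes 35.2% were called above 0 and 16.1% below.

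**Figure D5:**
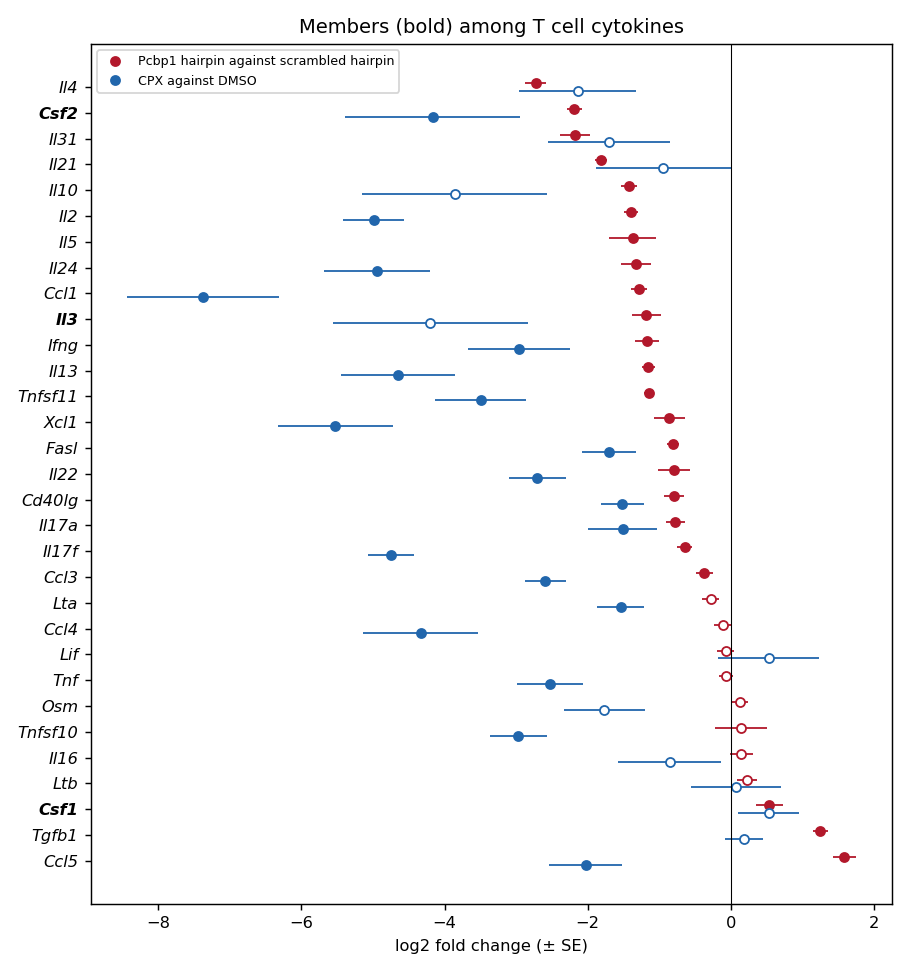
Log2 fold change with its SE for the members (bold) and the other T cell cytokines tested in the knockdown, from the lowest value for the Pcbp1 hairpin at the top; red is the Pcbp1 hairpin against the scrambled hairpin, blue is CPX against DMSO, and filled points passed at an adjusted p under 0.05. Csf2 stands second at -2.19 and Il3 at -1.18, and Csf1 stands near the bottom at 0.54.

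The genes whose pattern over the 8 libraries was most like each member were found by the root mean square distance between log2 profiles, each centred within its experiment, among 10430 genes. Csf2 and Il3 were each other's nearest gene, at a distance of 0.439 (Pearson's r 0.974 over 8 libraries), where the median gene lay 1.94 from Csf2 and 1.91 from Il3. The points share their libraries and the 2 contrasts, so this is a description only. After Il3, Csf2 was nearest to Il24 (0.737), Tnfsf11 (0.753), Il13 (0.814) and Il4 (0.833). After Csf2, Il3 was nearest to Il13 (0.720), Tnfsf11 (0.725), Lad1 (0.824) and Il24 (0.840).

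Csf1 had another set of neighbours, none of them a cytokine. They were Trio (0.162), Tcf4 (0.186), Hmgn5 (0.191), Usp27x (0.199) and Pip5k1b (0.202), where the median gene lay 0.672 away. Trio, the nearest, was at 100.1 and 121 RPM with the Pcbp1 hairpin and 63.9 and 87.1 RPM with the scrambled hairpin, and at 222 and 164 RPM with CPX and 137 and 90.6 RPM with DMSO. In the order of likeness to Csf2, Csf1 stood at place 6587 of 10430.

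Markers of cells that could make or answer these cytokines were looked at in each group. The summed level of 8 CD4 T cell markers was 1328 to 1424 RPM with the Pcbp1 hairpin. It was 1459 to 1555 RPM with the scrambled hairpin, 1629 to 1947 RPM with CPX and 1591 to 2455 RPM with DMSO. Single markers moved both ways. With the Pcbp1 hairpin 4 of the 8 rose and 3 fell, against 29.3% and 26.7% of all genes. Cd3e rose (log2 fold change 0.87), while Cd3d (-1.18), Cd3g (-0.89) and Cd28 (-0.80) fell. With CPX 1 rose (Cd3d, 0.80) and 3 fell (Cd5 -2.25, Cd3e -1.35 and Trac -0.75), against 19.9% and 24.8% of all genes. With no filter on low values the CPX calls of Cd3d, Cd3e and Trac were lost. The 11 macrophage and monocyte markers summed to 3.42 to 4.83 RPM with the Pcbp1 hairpin and 2.26 to 2.86 RPM with the scrambled hairpin. With CPX they summed to 46.4 to 67.6 RPM, against 2.80 to 4.71 RPM with DMSO. The 3 of them tested (Emr1, Itgam and Cd68) all rose with CPX, while Lyz2, C1qa and C1qb, which macrophages express strongly, were at 0 in all 4 libraries of that experiment.

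The 9 mast cell, basophil and eosinophil markers, of cells that also make interleukin 3, summed to 2.66 to 4.58 RPM with the Pcbp1 hairpin and 0.978 to 1.13 RPM with the scrambled hairpin. With CPX they summed to 6.10 to 6.19 RPM and with DMSO to 4.07 to 4.91 RPM. Kit alone made up most of each sum, at 4.38 and 2.38 RPM with the Pcbp1 hairpin and 0.917 and 0.768 RPM with the scrambled hairpin (1.89, edgeR's quasi-likelihood test, adjusted p = 0.00464). The other 8 markers were at or under 0.156 RPM in every library. The 10 fibroblast or packaging cell markers summed to 155 to 185 RPM with the Pcbp1 hairpin and 175 to 185 RPM with the scrambled hairpin. They summed to 302 to 415 RPM with CPX and 367 to 589 RPM with DMSO. The T cell gene Thy1 made up nearly all of each sum. It was at 183 and 153 RPM with the Pcbp1 hairpin and 183 and 173 RPM with the scrambled hairpin. With CPX it was at 407 and 296 RPM and with DMSO at 366 and 587 RPM. Col1a1 was at 4.32 and 3.12 RPM with CPX, against 0.203 and 0.460 RPM with DMSO, and rose (2.35, limma, adjusted p = 0.00448). Neutrophil markers reached 7.71 RPM with CPX against 0.153 RPM with DMSO. Of these, Mpo held 7.19 and 5.35 RPM in the CPX libraries, while S100a8, S100a9, Elane and Retnlg were at 0 in both. Dendritic cell markers reached 26.4 RPM with CPX against 3.27 RPM with DMSO. Itgax held 13.3 and 21.7 RPM of them with CPX and Zbtb46 8.91 and 4.26 RPM, while Clec9a, Siglech and Cd209a were at 0 in every CPX and DMSO library. In the hairpin experiment neutrophil markers stayed at or under 0.559 RPM. Dendritic cell markers were at 11.3 to 13.5 RPM with the Pcbp1 hairpin and 16.4 to 17.4 RPM with the scrambled hairpin. Xcr1 and Zbtb46 held most of these sums. Xcr1 was at 8.76 and 6.64 RPM with the Pcbp1 hairpin and 11.6 and 11.3 RPM with the scrambled hairpin. Zbtb46 was at 3.54 and 3.36 RPM with the Pcbp1 hairpin and 4.94 and 4.47 RPM with the scrambled hairpin. Flt3, Clec9a, Siglech and Cd209a were at or under 0.212 RPM in every hairpin library. B cell markers reached at most 34.1 RPM, in CPX replicate 1, of which Ighm held 31.7 RPM while Ms4a1 was at 0. CD8 T and NK cell markers summed to 44.1 to 137 RPM with the Pcbp1 hairpin and 44.9 to 144 RPM with the scrambled hairpin, and to 17.6 to 37.8 RPM with CPX and 17.1 to 17.9 RPM with DMSO. Cd8a, named after its values were seen, was at 67.1 and 6.92 RPM with the Pcbp1 hairpin and 63.8 and 6.49 RPM with the scrambled hairpin, so replicate 1 was the higher library of both groups, whereas Csf2, Il3 and Csf1 were higher in replicate 2 of both. The part of any of these in the values of Csf2, Il3 or Csf1 was not tested.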

How the data were processed

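Tools listed in the submitters' processing notes are STAR, HTSeq, cutadapt and DESeq, with build mm9 and no versions. The table with a column per library carries the name RPM, but for the hairpin experiment the authors' values are raw counts per gene. For CPX and DMSO the deposited values are treated as a score, counts scaled by a common factor (1.97 reads per unit) and rounded, so the test fixed for CPX is one for values on a log scale. The authors' deposited comparison tables hold a mean signal, log2 fold changes with SEs, a Wald score and p-values, from DESeq2 per the file headers. A line labelled Ins1 in the per-library table holds a constant (23487630) in every library, and the labels after it are displaced. Lines were given back to their genes by the authors' mean signals: 14455 lines matched 1 gene, 350 several and 0 none. The lines of Csf2, Il3 and Csf1 carried their own labels. Columns left unused numbered 0.

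RPM is 1e+06 times the value over the library total, with the constant left out. Genes reaching 1 RPM in 2 of 4 libraries were tested: by edgeR 4.0.16 (quasi-likelihood, TMM scaling) for the hairpins, with the SE worked back from the fold change and F, and by limma 3.58.1 (trended variance) on log2(RPM + 0.5) for CPX and for the difference, in R 4.3.3, with Benjamini-Hochberg adjustment over all genes tested and calls under 0.05. A log2(RPM + 0.5) scale understates the change of low genes. Both procedures were run on simulated data in which every gene had the same set spread beyond counting noise. That spread did not copy the uneven CPX and DMSO replicates. The runs therefore say nothing of the CPX test for Csf2 and Il3. Alternatives were DESeq2 1.42.0, other scalings, filters and pseudocounts, a replicate block and leaving out each library. Named genes were the members, the whole family list, up to 4 called genes per list with the smallest adjusted p in each comparison (2 for the difference), 3 neighbours on each side of Csf2 and Il3, and 5 like genes per member. The members and lists were chosen with earlier results of these data known. UTR windows came from GENCODE M21 transcripts, and promoters from RefSeq. Neither has the authors' build, so no coordinate was joined to their data, and exon lengths may differ from the annotation they counted on. The counting is not stated to use strand.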

Additional observations from a re-analysis of the deposited data

How the results depend on the processing

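Of 108 recomputed values of the 3 members, 86 kept their direction and side of the threshold. The Csf1 rise with the Pcbp1 hairpin lost its call with DESeq2 (0.54) and with a filter of 5 RPM (0.51), and leaving out each library gave 0.26 to 0.86. The Csf2 fall with CPX lost its call with quantile normalization (-3.95) and with no filter (-4.17, over more genes), and ran between -5.92 and -2.42 with a library left out. Il3 with CPX ran between -5.90 and -2.49. The difference between effects ran between 0.34 and 3.84 for Csf2, 1.42 and 4.84 for Il3, and -0.37 and 0.64 for Csf1, whose sign also turned with TMM scaling (-0.24). Where 1 library of a group was left out, the other was assumed to vary like the other groups. TMM scaling moved the median of all genes from -0.12 to 0.00 with CPX and from 0.40 to 0.04 for the difference. The cause of these changes was not tested.

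With the replicate block Il3 passed with CPX (-4.20, limma, adjusted p = 3.21e-06), and the differences of Csf2 (2.09, adjusted p = 0.0192) and Il3 (3.13, adjusted p = 0.000997) passed, and no other call of a member changed. The block called 49.3% of genes with CPX, 63.5% with the hairpin and 51.4% for the difference. Deviations of same-numbered libraries correlated at 0.289 across genes in the hairpin experiment and 0.101 in the CPX experiment, over 2 pairs each, and 23 of 30 cytokine genes leaned the same way in CPX and DMSO. No label says that the numbers pair the samples, and 2 pairs do not settle it, so the block was not used for the reported values.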
